A study of Mus musculus with 10 samples.

Results

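The axon guidance genes described here are the ligands and receptors of the semaphorin, ephrin, Slit and netrin systems: Sema3 to Sema7, plexins, neuropilins, Eph receptors, ephrins, Slits, Robos, netrins 1 to 5, Unc5 receptors and Dcc. They were chosen by a rule on gene symbols that used no measured value, although earlier results of these data were known. The rule found 68 genes among 45952 lines of the expression table. A second line with the Ensembl identifier of Epha5 was listed at 0 in every library and was left out. Their RNA was measured in sensory neurons of adult, uninjured male and female mice that carry an Avil-EGFP transgene (BAC line QD84Gsat, kept on a CD1 background), in which green fluorescent protein is driven by the promoter of advillin, an actin-binding protein of sensory neurons. Dorsal root ganglia (DRG) of lumbar levels and trigeminal ganglia (TG) of the head were dissociated, and GFP-positive cells that excluded propidium iodide, a stain of dead cells, were sorted by FACS. There were 6 DRG libraries, 3 from males and 3 from females, and 4 TG libraries, 2 from each sex. All groups carried the transgene, and the labels list satellite glial cells as a contaminant of every sample. The replicates are separate samples of each group, and the sources used here do not state whether a DRG and a TG library came from the same mouse.

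Axon guidance molecules steer the growing tip of an axon. Semaphorins act through plexins, and the secreted class 3 semaphorins mostly need a neuropilin as the binding subunit. A-type ephrins are held in the membrane by a lipid anchor and bind mainly EphA receptors, whereas B-type ephrins span the membrane and bind mainly EphB receptors. Slits repel axons through Robo receptors, and netrins attract through Dcc or repel through Unc5 receptors. In developing sensory ganglia these cues shape the paths of peripheral and central axons, and many of them remain expressed in the adult.

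The values are FPKM, the reads on a gene scaled by transcript length and library size. Levels of different genes can be compared only roughly, since values can still vary with transcript length, as described below for male DRG replicate 3. The 10 libraries summed to between 543862 and 870872 FPKM. A gene was called detected when 2 or more replicates of either ganglion reached an FPKM of 1. Sensory neuron markers were abundant, with 9 of the 9 listed markers in the table detected and a summed level of 6059 to 8997 FPKM in DRG and 6143 to 7153 FPKM in TG. Markers of satellite glia were also high, at 1629 to 5597 FPKM in DRG and 4193 to 5620 FPKM in TG (12 of 12 detected). Of the Schwann cell and myelin markers 9 of 10 were detected, at 884 to 1387 and 1340 to 1923 FPKM. Fibroblast and meninges markers were lower, at 26.7 to 61.2 FPKM in DRG and 23.3 to 59.2 FPKM in TG (6 of 8 detected). Only 1 of 8 endothelial and 2 of 10 macrophage markers were detected. Male DRG replicate 3 stood apart, with the highest FPKM sum and a rank correlation with the others that was 0.849 in the median. Female DRG replicates 1 and 3 followed, with 0.869 and 0.895, while the remaining libraries had 0.933 or more. Some, but not all, of the values that male DRG replicate 3 moves are also given without it. In RNA from sorted pools, fewer cells of a type and less RNA per cell cannot be told apart.

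Of the 68 guidance genes, 38 (55.9%) were detected, against 27.5% of all lines in the table. The detected genes comprised 14 of 20 semaphorins, 8 of 9 plexins, both neuropilins, 4 of 9 EphA receptors, 1 of 5 EphB receptors, 2 of 5 A-type ephrins, 2 of 3 B-type ephrins, 3 of 7 genes of the Slit and Robo group and 2 of 5 genes of the Unc5 and Dcc group, but 0 of 3 netrins. Thus plexins and neuropilins were detected almost in full, whereas most Eph receptors and every netrin in the table were not. In all 10 libraries, 19 genes reached an FPKM of 1. By contrast, 23 genes reached it in no library, and Efna4 and Epha1 were listed at 0 throughout. The detected genes closest to the threshold were Sema6a, Epha6 and Sema3g, with second-highest values within a ganglion of 1.02, 1.02 and 1.18 FPKM. Slit2, Sema5b and Ntn5 lay just outside it, with 0.992, 0.991 and 0.967 FPKM.

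**Figure D1:**
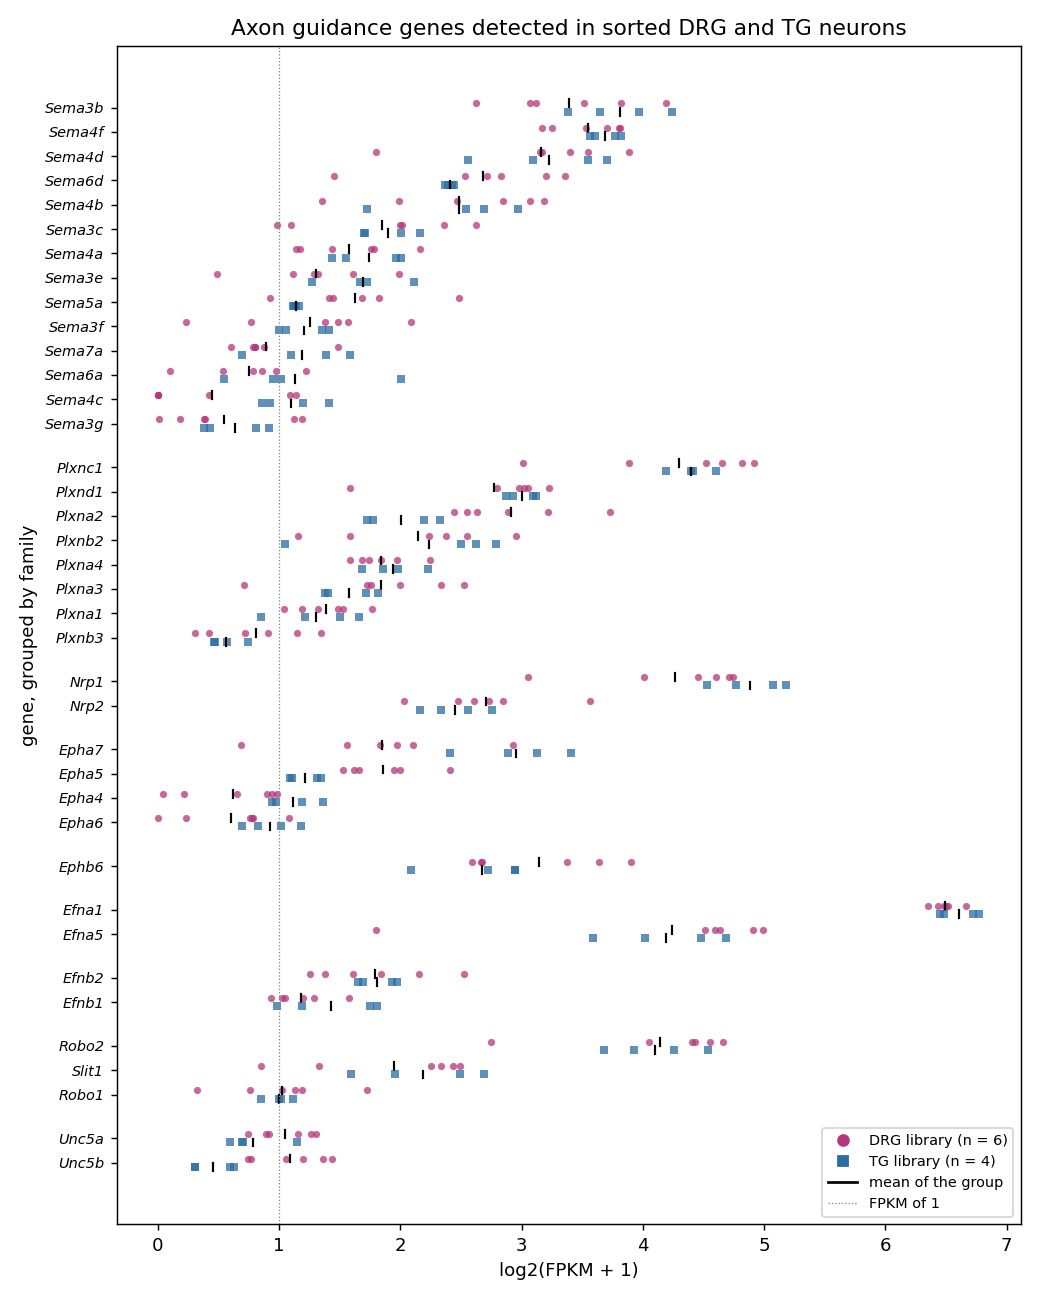
Level of each of the 38 detected guidance genes in every library, as log2(FPKM + 1) on the horizontal axis, with genes grouped by family on the vertical axis. Circles are the 6 DRG libraries, squares the 4 TG libraries and black ticks the group means. Efna1 stands far to the right, and the libraries of the ganglia overlap for all genes but Epha5, Plxna2 and Unc5b.

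Efna1, the gene of the GPI-anchored ligand ephrin-A1, was the most abundant guidance transcript. It ranged from 80.8 to 101 FPKM in DRG (median 88.8) and stood at 109, 88.2, 86.5 and 104 FPKM in TG. The ranges overlap, and this level lay near the 90th percentile of the detected genes in both ganglia (90.3 in DRG and 90.9 in TG). On the log2(FPKM + 1) scale DRG minus TG was -0.12 (SE 0.17, 95% interval -0.49 to 0.26, limma adjusted p = 0.902), so a difference of 2-fold lies outside the interval. Efna5, the other A-type ephrin detected, followed at 21.8 ± 10.1 FPKM in DRG (SD, n = 6) and 18.1 ± 6.12 FPKM in TG (SD, n = 4). Its DRG values were 28.9, 21.8, 2.48, 30.7, 23.1 and 23.9 FPKM, in which male DRG replicate 3 lies far below the other libraries. Without that library the DRG mean of Efna5 was 25.7 ± 3.90 FPKM. Efna2, Efna3 and Efna4 were not detected.

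Of the EphA receptors, which bind the A-type ephrins, Epha7, Epha5, Epha4 and Epha6 were detected. All lay far below their ligand Efna1, with mean levels of at most 7.0 FPKM in either ganglion. Epha7 was the most abundant of them over all libraries. Epha2, Epha3, Epha8 and Epha10 stayed below an FPKM of 1 in every library. The EphB group was carried by Ephb6, a receptor whose kinase domain is inactive, which made up 83.0% of the summed EphB level in DRG and 84.3% in TG. Ephb6 stood at 8.41 ± 3.76 FPKM in DRG and 5.56 ± 1.63 FPKM in TG, with DRG values from 5.02 to 13.9 FPKM and TG values of 6.70, 3.25, 5.59 and 6.70 FPKM. The ranges overlap, and DRG minus TG was 0.46 (SE 0.33, adjusted p = 0.814), or 0.20 without male TG replicate 2. Ephb3 was not detected by the rule, since only female DRG replicate 1 exceeded 1, at 4.61 FPKM. The same library held the single high value of Sema5b (4.94 FPKM), although Sema5b also reached 1.298 FPKM in female TG replicate 1. B-type ephrins were lower than Ephb6. Efnb2 had 2.63 ± 1.27 FPKM in DRG and 2.52 ± 0.399 FPKM in TG, and Efnb1 had 1.29 ± 0.390 and 1.77 ± 0.762 FPKM.

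Among the semaphorins, 5 of 7 class 3 genes and 5 of 6 class 4 genes were detected. Class 3 semaphorins are secreted, whereas class 4 semaphorins are transmembrane proteins. Sema3b was the most abundant semaphorin over the 10 libraries, with 5.17 to 17.3 FPKM in DRG (median 9.06) and 14.6, 9.45, 17.9 and 11.5 FPKM in TG. Its ganglia overlap, with DRG minus TG at -0.42 (SE 0.32, adjusted p = 0.828). It was -0.25 without female DRG replicate 1 or without female TG replicate 1, and -0.02 without the 3 DRG libraries with the lowest rank correlations. Sema4f had nearly the same level, 10.9 ± 2.22 FPKM in DRG and 11.9 ± 1.11 FPKM in TG, and the order of Sema3b and Sema4f is within their spread. Sema4d followed with 8.72 ± 3.75 and 8.80 ± 3.22 FPKM. Sema3a, the classical repellent of sensory axons, was listed at 0 in every library but male DRG replicate 2, where it had 0.00907 FPKM. Sema3d, Sema4g, Sema5b, Sema6b and Sema6c were also not detected. Sema7a, a GPI-anchored semaphorin that binds plexin C1, was near the threshold at 0.892 ± 0.454 FPKM in DRG and 1.34 ± 0.599 FPKM in TG.

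Plexins, the signalling receptors of the semaphorins, were led by Plxnc1. It ranged from 7.08 to 29.2 FPKM in DRG (median 23.0), the lowest value being that of male DRG replicate 3, and stood at 20.3, 17.2, 20.02 and 23.3 FPKM in TG. The TG values lie inside the DRG range, and DRG minus TG was -0.10 (SE 0.34, adjusted p = 0.954), or 0.15 without that replicate. All 4 A-type plexins, the partners of neuropilins, were detected, with summed means of 14.0 FPKM in DRG and 9.48 FPKM in TG. Plxnd1, whose ligand Sema3e was detected too, had 6.26 ± 2.22 FPKM in DRG and 7.03 ± 0.675 FPKM in TG. Plxnb1, a receptor of Sema4d, was the plexin not detected, with 0.251 ± 0.138 FPKM in DRG and 0.313 ± 0.0755 FPKM in TG, while Plxnb2 had 3.79 ± 1.98 and 4.20 ± 2.15 FPKM. Nrp1, the binding subunit for several class 3 semaphorins, had the second highest mean of the guidance genes in TG, whereas in DRG Efna5 and Plxnc1 had slightly higher means, within the spread. It held 25.7, 23.3, 7.30, 15.1, 25.1 and 20.9 FPKM in DRG and 22.1, 26.2, 35.2 and 32.6 FPKM in TG. Of the TG libraries, 3 of 4 lie above every DRG library, but the ranges overlap, and DRG minus TG was -0.62 (SE 0.32, 95% interval -1.32 to 0.07, adjusted p = 0.785). Without male DRG replicate 3, which held 7.30 FPKM, it was -0.39, and without that library and female DRG replicates 1 and 3 it was -0.15. Nrp2 was lower than Nrp1, at 5.89 ± 2.64 and 4.53 ± 0.989 FPKM.

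Robo2 carried the Slit and Robo group, with 77.8% of its summed level in DRG and 76.0% in TG. This Slit receptor ranged from 5.72 to 24.3 FPKM in DRG (median 20.3) and stood at 14.2, 11.8, 18.1 and 22.2 FPKM in TG. The ranges overlap, and DRG minus TG was 0.04 (SE 0.33, 95% interval -0.68 to 0.76), or 0.30 without male DRG replicate 3. Robo1 was near the threshold, at 1.12 ± 0.689 FPKM in DRG and 0.998 ± 0.150 FPKM in TG. Slit1 was the single Slit ligand detected, at 3.19 ± 1.62 and 3.74 ± 1.58 FPKM, since Slit2 had 0.787 ± 0.330 and 0.395 ± 0.174 FPKM and Slit3 was lower still. The netrin system was low throughout. Ntn5 was the most abundant netrin, with DRG values from 0 to 1.32 FPKM and TG values of 1.03, 0.186, 0.967 and 0.229 FPKM. Dcc reached at most 0.372 FPKM in any library. Unc5a and Unc5b passed the threshold of detection, whereas Unc5c and Unc5d did not.

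**Figure D2:**
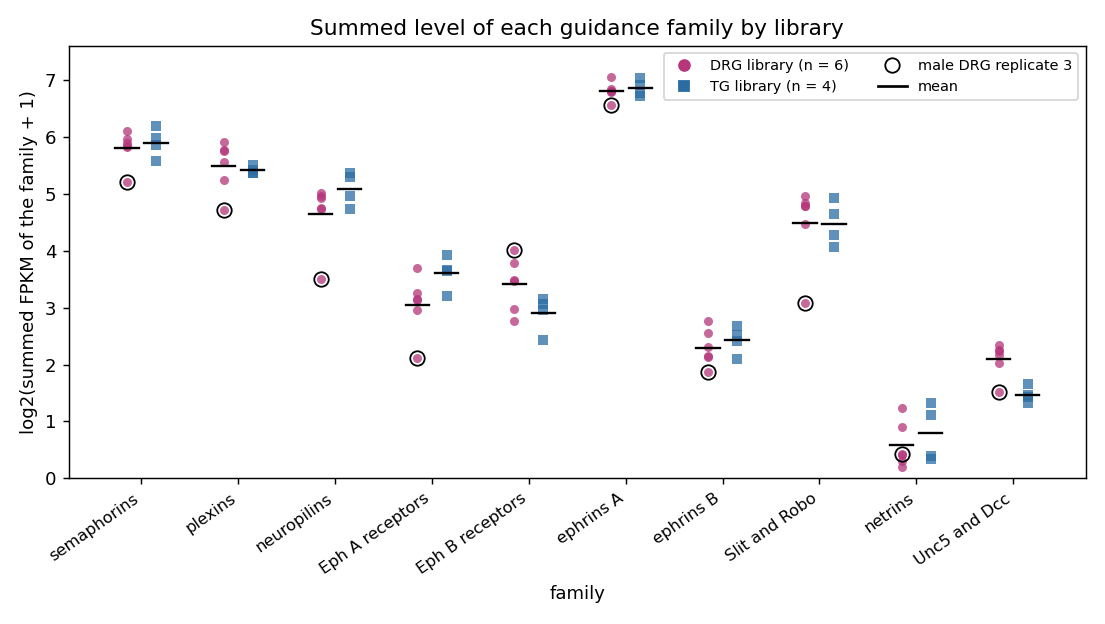
Summed FPKM of each guidance family in every library, as log2(sum + 1) on the vertical axis, for the 6 DRG libraries (circles) and the 4 TG libraries (squares), with group means as black lines and male DRG replicate 3 ringed. A-type ephrins had the highest sums (93.8 to 131 FPKM in DRG and 104 to 130 FPKM in TG) and netrins the lowest, and the ringed library is the lowest DRG library in 8 of the 10 families.

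The main comparison asked whether guidance genes differ between DRG and TG neurons. After adjustment over all 12637 detected genes, 0 of the 38 guidance genes passed the threshold of 0.05 in limma (adjusted p from 0.544 to 0.997), where 14 of all genes (0.111%) did. At an unadjusted p under 0.05 there were 5 guidance genes, Epha7, Plxna2, Epha5, Unc5b and Sema4c, against 6.35% of all genes. With a replicate block for the 4 pairs of DRG and TG libraries that share a number in the labels there were 3, Epha7, Plxna2 and Unc5b, against 7.26% of all genes, and the same 8 libraries without the block gave 4 (with Epha5), against 4.81%. The fitted mean was higher in DRG for 16 genes and in TG for 22, and was higher in DRG for 44.3% of all genes. Their median difference was -0.08 on the log2 scale, beside -0.05 for all genes. For 25 of 38 guidance genes (65.8%) the 95% interval lay within 1 log2 unit of 0, beside 64.5% of all genes, so a difference of 1 unit on this scale lies outside the interval for most but not for all of them. For each of 3 genes every DRG library lay above every TG library (7.89% of the detected guidance genes). This held for 0.681% of all genes, while 1.95% showed no overlap in either direction. Of the 3 guidance genes, Unc5b was detected through DRG alone. Across the 38 genes, the DRG and TG means had a Spearman correlation of 0.936. That correlation is across genes, which are not independent replicates, and a gene's length and base composition are the same in both ganglia.

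**Figure D3:**
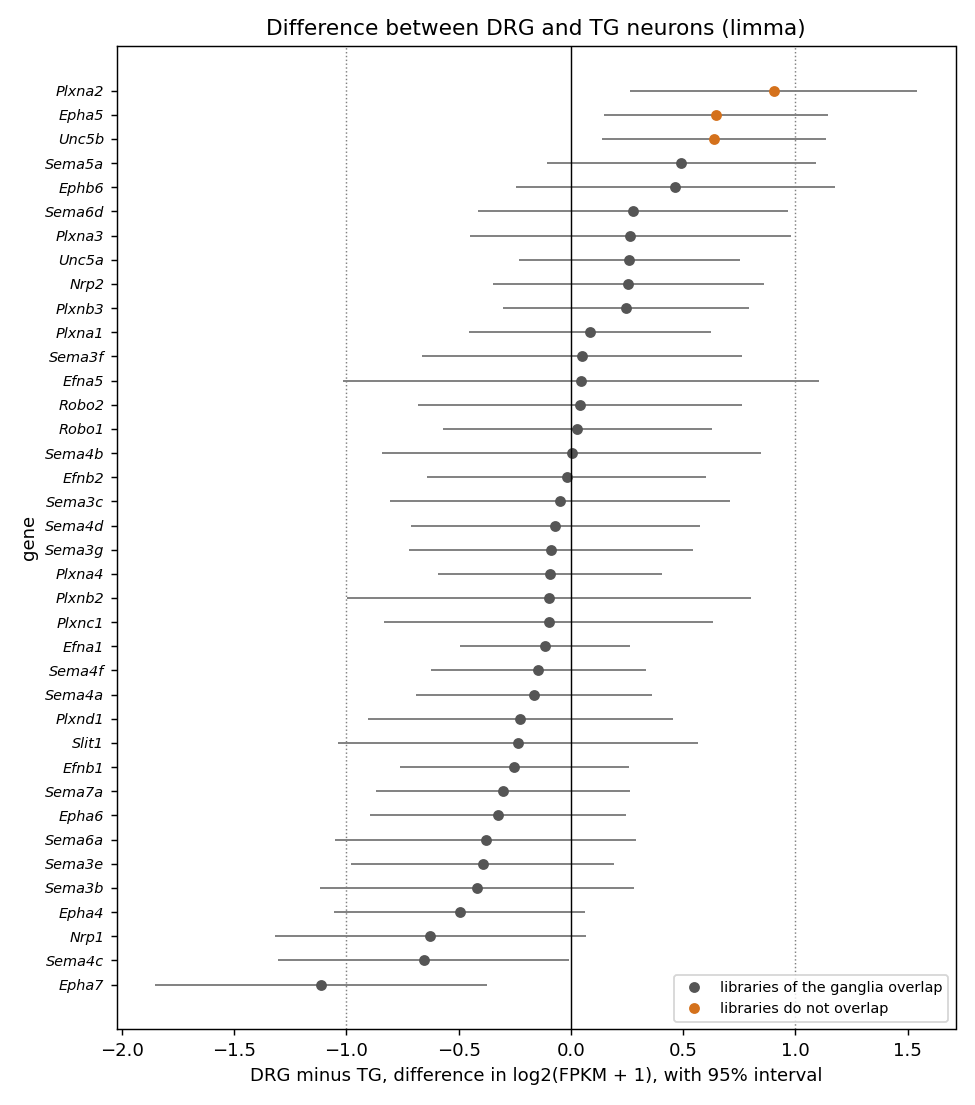
DRG minus TG difference in log2(FPKM + 1) for each detected guidance gene, with its 95% interval from limma. Dotted lines mark a difference of 1 log2 unit. The genes whose libraries do not overlap, Plxna2, Epha5 and Unc5b, lie at the top, and Epha7 lies at the bottom with a difference of -1.11.

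Plxna2, a plexin that signals for class 3 and class 6 semaphorins, was higher in every DRG library than in any TG library. It had 8.28, 6.41, 4.44, 5.18, 4.85 and 12.2 FPKM in DRG and 4.01, 3.59, 2.30 and 2.43 FPKM in TG. The nearest values, 4.44 in male DRG replicate 3 and 4.01 in male TG replicate 1, lie close together. DRG minus TG was 0.90 on the log2 scale (SE 0.29, 95% interval 0.26 to 1.54), with an adjusted p of 0.617 and a two-sided exact permutation p of 0.0143. Over the alternatives tried its adjusted p lay between 0.0614 and 0.99999. The gene (ENSMUSG00000026640) spans chr1:194618218-194816869 on the plus strand of GRCm38.

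Epha5, a receptor of A-type ephrins, also separated the ganglia, at a low level. Its values were 2.86, 2.16, 1.87, 4.32, 2.07 and 3.0 FPKM in DRG and 1.15, 1.13, 1.54 and 1.49 FPKM in TG. The difference was 0.65 (SE 0.23, adjusted p = 0.661, exact permutation p = 0.0143). Unc5b, a netrin receptor, stood at 1.29, 1.07, 0.704, 0.676, 1.57 and 1.71 FPKM in DRG and at 0.508, 0.234, 0.235 and 0.542 FPKM in TG. No TG library reached an FPKM of 1 for it, and 4 of 6 DRG libraries did. Unc5b thus passed the rule of detection through DRG alone, the ganglion where it was higher. Its difference was 0.64 (SE 0.23, adjusted p = 0.692, exact permutation p = 0.00952). The adjusted p ranged over the alternatives from 0.129 to 0.99999 for Epha5 and from 0.122 to 0.99999 for Unc5b. The smallest p that this exact test can give with 6 and 4 libraries is 0.00476, and over all genes the smallest adjusted exact p was 0.692, so the permutation test could call no gene. Epha5 (ENSMUSG00000029245) lies on the minus strand at chr5:84054761-84417382 and Unc5b (ENSMUSG00000020099) on the minus strand at chr10:60762593-60831581.

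Epha7, in contrast, had its higher level in TG. It held 1.94, 3.29, 0.603, 6.61, 2.92 and 2.55 FPKM in DRG and 7.71, 4.31, 6.39 and 9.59 FPKM in TG. Female DRG replicate 1, at 6.61 FPKM, lies inside the TG range, and the other DRG libraries lie below it. The difference was -1.11 (SE 0.34, 95% interval -1.85 to -0.37), with an adjusted p of 0.544 and an exact permutation p of 0.0333. Its limma p was the smallest among the guidance genes in this comparison. With array weights, which let limma down-weight libraries, Epha7 passed (-1.18, adjusted p = 0.0361), and under the other alternatives it did not. It was lower in the DRG library in 4 of 4 pairs by description number. Female DRG replicate 1 has no such number and is in no pair. Each paired DRG value lies below every TG value, so any pairing of these libraries gives the same count. Summed markers of Schwann cells and myelin were 884 to 1387 FPKM in DRG and 1340 to 1923 FPKM in TG. Of these markers, 9 of 9 detected were fitted higher in TG, with none past the threshold. In limma 4 of the 9 had an unadjusted p under 0.05, beside 6.35% of all genes. Summed satellite glia markers had a median of 3621 FPKM in DRG and 5062 FPKM in TG, with overlapping ranges. Gene by gene, 9 of them were fitted higher in DRG and 3 in TG. In an earlier experiment on DRG cells, Epha7 had a mean of 1.27 FPKM in magnetically sorted neurons and 1.33 FPKM in mixed cells. Plxna2 had 7.95 and 17.5 FPKM there. The part of glial cells in these results was not tested. Epha7 (ENSMUSG00000028289) occupies chr4:28813131-28967499 on the plus strand.

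Sema4c, a transmembrane semaphorin, was listed at 0 in 3 DRG libraries and at 1.13, 0.341 and 1.203 FPKM in the others, with 1.29, 1.66, 0.813 and 0.901 FPKM in TG. Both groups overlap, and the difference was -0.66 (SE 0.30, adjusted p = 0.772). Epha4, which binds ephrins of both types, had at most 0.980 FPKM in DRG and at least 0.922 FPKM in TG. Its difference was -0.50 (SE 0.26, adjusted p = 0.791). No DRG library reached an FPKM of 1, so Epha4 was detected through TG alone, the ganglion where it was higher. Sema5a, a transmembrane semaphorin with thrombospondin repeats, was nearly uniform in TG, at 1.18, 1.24, 1.16 and 1.203 FPKM, but spread from 0.899 to 4.59 FPKM in DRG. Its lowest DRG value was again that of male DRG replicate 3, and the other 5 DRG libraries lay above every TG library. The difference was 0.49 (SE 0.27, adjusted p = 0.792). Sema3e, the ligand of plexin D1, had 1.59 ± 0.869 FPKM in DRG and 2.30 ± 0.786 FPKM in TG, with a difference of -0.39 (SE 0.27, adjusted p = 0.808).

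The promoters of the 3 genes without overlap and of Epha7 are shown because these genes had the smallest limma p values between the ganglia. The sequences are from RefSeq on GRCm38.p6 and hold 250 bases before and 50 bases after the annotated start. Capitals mark TAATTA, a core recognised by many homeodomain proteins, which reads the same on both strands and was the only motif searched. They were read at chr4:28812881-28813180 (plus strand) for Epha7, chr1:194619579-194619878 (plus strand) for Plxna2, chr5:84417333-84417632 (minus strand) for Epha5 and chr10:60831532-60831831 (minus strand) for Unc5b.
Epha7: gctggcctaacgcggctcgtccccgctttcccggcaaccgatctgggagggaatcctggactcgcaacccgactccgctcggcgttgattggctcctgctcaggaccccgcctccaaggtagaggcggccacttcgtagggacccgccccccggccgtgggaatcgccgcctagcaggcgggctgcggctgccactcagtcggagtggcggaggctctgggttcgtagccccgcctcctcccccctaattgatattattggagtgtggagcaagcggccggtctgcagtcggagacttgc
Plxna2: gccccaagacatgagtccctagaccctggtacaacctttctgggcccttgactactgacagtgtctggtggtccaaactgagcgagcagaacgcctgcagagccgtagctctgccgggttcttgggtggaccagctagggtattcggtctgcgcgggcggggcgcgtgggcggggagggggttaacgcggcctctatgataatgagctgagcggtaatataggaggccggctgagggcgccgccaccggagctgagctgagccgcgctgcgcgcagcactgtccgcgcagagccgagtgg
Epha5: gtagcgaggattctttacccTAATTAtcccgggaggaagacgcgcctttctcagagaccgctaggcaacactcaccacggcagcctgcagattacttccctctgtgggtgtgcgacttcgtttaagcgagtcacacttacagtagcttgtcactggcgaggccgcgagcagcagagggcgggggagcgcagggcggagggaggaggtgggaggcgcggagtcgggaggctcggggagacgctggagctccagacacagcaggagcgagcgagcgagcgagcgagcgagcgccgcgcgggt
Unc5b: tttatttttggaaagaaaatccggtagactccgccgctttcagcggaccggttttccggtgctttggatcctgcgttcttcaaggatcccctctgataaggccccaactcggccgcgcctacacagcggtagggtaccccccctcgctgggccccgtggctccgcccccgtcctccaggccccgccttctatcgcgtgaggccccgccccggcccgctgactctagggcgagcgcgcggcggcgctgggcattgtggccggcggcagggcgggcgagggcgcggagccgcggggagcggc
TAATTA occurred once, 230 bases upstream of the start of Epha5, and not in the other windows shown. Epha7 had 2 promoter entries, and its other window is not shown. The Plxna2 window, from 194619579, lies inside the gene span given above, which begins at 194618218. Its annotated start in RefSeq is thus not the GENCODE gene start. Over all 32851 promoter windows, 5.29% held it. Of the 58 guidance genes with a window, 3 held it in the first window listed (5.17%), beside 5.31% of all genes. Such a match is a description of the sequence. The 4 windows shown were rich in G and C, with 67.0% in Epha7, 64.7% in Plxna2, 64.3% in Epha5 and 69.7% in Unc5b, beside a median of 52.7% over all windows.

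The sexes were compared in the same fit. None of the 38 guidance genes passed (adjusted p from 0.816 to 0.998), beside 3 of all genes (0.0237%), and 1 gene, Sema4d, had an unadjusted p under 0.05, beside 4.1% of all genes. Sema4d, which acts through B-type plexins, had 7.97, 7.87 and 2.49 FPKM in male DRG and 7.53 and 4.89 FPKM in male TG. In females it had 10.7, 9.54 and 13.8 FPKM in DRG and 10.7 and 12.1 FPKM in TG. Every female library thus lay above every male library, which held for 1 of 38 guidance genes and for 0.506% of all genes. Male minus female was -0.86 (SE 0.29, 95% interval -1.49 to -0.23, adjusted p = 0.816). With array weights it was -0.56 and without male DRG replicate 3 -0.61, and the adjusted p over the alternatives lay between 0.428 and 0.9998. Sema3e and Efna5 followed by p, with -0.51 (SE 0.26, adjusted p = 0.816) and -0.91 (SE 0.48, adjusted p = 0.816). Without male DRG replicate 3 the difference was -0.35 for Sema3e and -0.37 for Efna5. In DRG the sexes overlap for both, with Sema3e at 1.496, 1.44 and 0.400 FPKM in males and 1.16, 2.05 and 2.98 FPKM in females. In TG both lay lower in the 2 males, Sema3e at 1.41 and 2.18 FPKM against 2.31 and 3.32 FPKM, and Efna5 at 11.05 and 15.2 FPKM against 21.3 and 24.7 FPKM.

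Of the 38 guidance genes, 29 (76.3%) had a lower fitted mean in males, beside 54.9% of all genes, with a median difference of -0.13, beside -0.04. Without male DRG replicate 3 the number was 23 (60.5%), beside 50.1% of all genes, and the median was -0.04, beside 0.00. The interaction of ganglion and sex called 0 guidance genes (adjusted p of 0.9999 for all) and 0 had an unadjusted p under 0.05, beside 0% of all genes adjusted and 1.17% unadjusted. The smallest p values were those of Sema7a, Efnb1 and Ephb6. Sema7a, for example, was 1.14 and 0.615 FPKM in male TG and 2.0 and 1.62 FPKM in female TG. In DRG its values were 0.740, 0.739 and 1.80 FPKM in males and 0.833, 0.522 and 0.722 FPKM in females, so that its one high DRG value was that of male replicate 3.

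Male DRG replicate 3 was the lowest of the 6 DRG libraries for 22 of 38 guidance genes (57.9%), whereas it was the lowest for 35.5% of all genes. The 68 genes summed to 196 FPKM in it, to 295 to 327 FPKM in the other DRG libraries and to 255 to 330 FPKM in TG. Relative to the mean of the other 5 DRG libraries, the guidance genes had a median of -0.51 log2 units in this library, beside -0.21 for all genes. Rescaling by median ratios left -0.32 beside 0.02. The guidance genes are also long. Their longest annotated transcripts had a median of 5771 bases, beside 3168 bases for all detected genes, and 37 of 38 exceeded that median. The exception was Efna1, the most abundant of them, with 1632 bases and a deviation of 0.03 in this library. In this library the deviation of all genes went down with transcript length, from a median of 0.64 below 2000 bases to -0.65 at 6000 bases or more, where the 18 guidance genes had -0.83. The rank correlation of deviation with length across all genes was -0.505 here and between -0.280 and 0.233 in the other libraries. Genes are not independent replicates, and the part of transcript length in the low values was not tested.

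**Figure D4:**
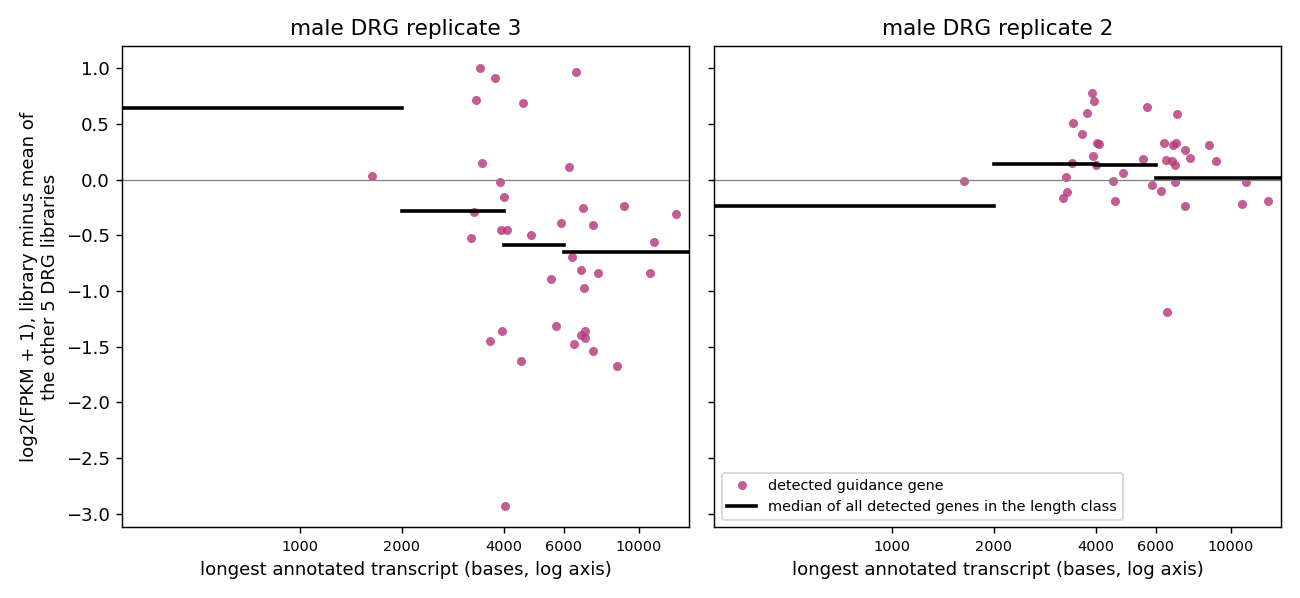
Difference in log2(FPKM + 1) between a library and the mean of the other 5 DRG libraries (vertical axis) against the longest annotated transcript of each detected guidance gene (horizontal log axis), for male DRG replicate 3 (left) and male DRG replicate 2 (right). Points are guidance genes and black lines medians of all detected genes in 4 length classes. On the left most points lie below 0 and the lines step down from 0.64 to -0.65, whereas on the right the lines lie between -0.23 and 0.14.

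The spread of the guidance genes was wider in DRG. Their coefficient of variation had a median of 0.455 in DRG and 0.277 in TG, and it was higher in DRG for 32 of 38 genes, beside medians of 0.426 and 0.220 for all genes. Without male DRG replicate 3 the DRG median was 0.366. Efna1 had the lowest value in DRG, 0.0744, and stood at 0.115 in TG, where Sema5a, Sema6d, Sema4f and Plxnd1 were lower. Without that replicate the ganglion comparison still called 0 of 38 guidance genes, with 20 fitted higher in DRG and 18 in TG, and 7 had an unadjusted p under 0.05. The median difference of the guidance genes was then 0.05, beside -0.02 for all genes. Over all genes 47.4% were then fitted higher in DRG, 8.12% had an unadjusted p under 0.05 and 3.69% had no overlap. Of the 7, Sema5a (difference 0.62) and Sema6d (0.51) then also had no overlap between the ganglia, and Plxna2, at 1.02 (adjusted p = 0.359), had the smallest p.

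The deposited tables also hold the authors' mean FPKM of an earlier experiment on magnetically sorted DRG neurons and on mixed dissociated DRG cells, which carry no replicate spread here and were normalized separately. All 38 detected guidance genes had a mean of at least 1 in the mixed cells. In 5 of them (13.2%) the magnetically sorted mean was at most 0.25 of the mixed mean, beside 5.75% of 11251 genes. These were Sema3b, Plxnb3, Sema5a, Epha6 and Sema3g. Sema3b had the widest gap, with 2.20 FPKM in magnetically sorted neurons and 50.4 FPKM in mixed cells, and Sema5a had 1.11 and 13.7 FPKM. The magnetically sorted mean was the higher one for 12 of 38 guidance genes (31.6%), beside 49.0% of all genes, and the median ratio was 0.761 beside 0.994. Plxnc1 had the highest mean in magnetically sorted neurons, 108 FPKM, and stood at 48.3 FPKM in mixed cells. Slit1 had 38.2 and 24.5 FPKM and Efna1 27.5 and 15.9 FPKM, while Sema7a had 16.9 FPKM in magnetically sorted neurons and 35.3 FPKM in mixed cells. Across the 38 genes the FACS-sorted DRG means and the magnetically sorted means had a Spearman correlation of 0.666, a description across genes. Whether satellite glia in the FACS sort contribute to genes such as Sema3b was not tested.

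**Figure D5:**
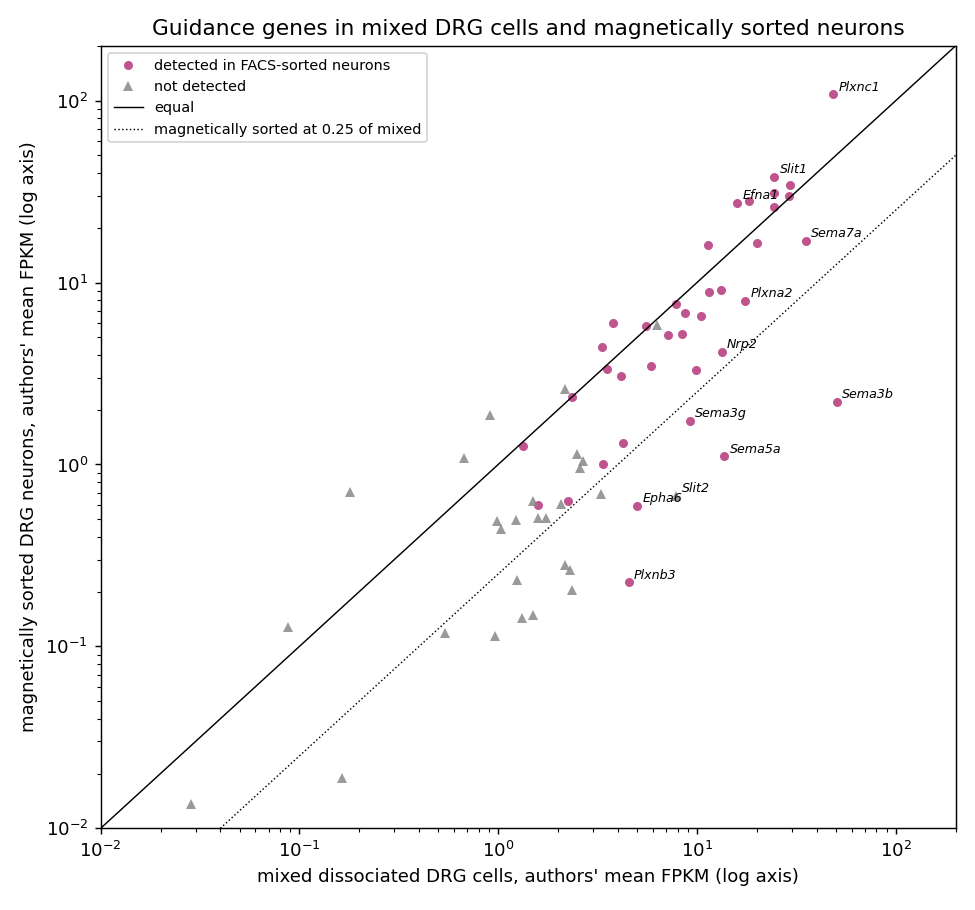
Authors' mean FPKM of each guidance gene in magnetically sorted DRG neurons (vertical log axis) against mixed dissociated DRG cells (horizontal log axis), for genes above 0 in both. Circles are genes detected in the FACS-sorted neurons and triangles those that were not, the solid line marks equal means and the dotted line a ratio of 0.25. Sema3b, Sema5a, Epha6, Sema3g and Plxnb3 are the circles below the dotted line, and Plxnc1 lies above the solid line at the top.

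Guidance genes outside these families, namely co-receptors, other cues and intracellular effectors, were examined as a list of 100 symbols, of which 99 were in the table and 83 were detected. None of the 83 passed between the ganglia (adjusted p from 0.756 to 0.9999), 43 were fitted higher in DRG (44.3% of all genes were) and 40 in TG, and 0 had libraries without overlap, beside 1.95% of all genes. At an unadjusted p under 0.05 there were 4 of 83, beside 6.35% of all genes. Rac1, a GTPase of the growth cone, was at 35.3 ± 11.8 FPKM in DRG and 20.9 ± 4.40 FPKM in TG (difference 0.68, SE 0.27, adjusted p = 0.756). Reln, the secreted glycoprotein reelin, was at 2.33 ± 2.03 and 0.352 ± 0.260 FPKM (1.06, SE 0.43, adjusted p = 0.756), with DRG values spread from 0.324 to 5.13 FPKM. Its highest TG value was 0.705 FPKM, so Reln was detected through DRG alone, the ganglion where it was higher. Both others had their higher mean in TG. Dpysl5, of the collapsin response mediator proteins, was at 19.5 ± 10.03 and 34.1 ± 9.15 FPKM (-0.89, SE 0.37, adjusted p = 0.765), and Rap1gap, a GTPase-activating protein of Rap1, at 15.1 ± 6.57 and 23.6 ± 3.33 FPKM (-0.71, SE 0.31, adjusted p = 0.772).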

How the data were processed

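RNA of FACS-sorted Avil-GFP neurons was sequenced in 6 DRG and 4 TG libraries. The authors aligned reads uniquely to mm10 with STAR and made FPKM per gene with cufflinks, after a low-input SMARTer preparation. The deposited FPKM are scaled for library size and length. Read counts were not used here, so precision is given by the spread of the replicates. From the smallest steps between values, the relative depth of the libraries differed by a factor of 1.58. Further deposited columns, the authors' DESeq2 fold changes and p-values, were not used, nor were 22 per-sample columns, 12 of an earlier study and 10 that repeat FPKM.

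Genes that reached an FPKM of 1 in 2 or more replicates of either ganglion (12637) were put on the log2(FPKM + 1) scale, which understates changes of low genes, and fitted in limma 3.58.1 (R 4.3.3; lmFit, eBayes with trend) with ganglion and sex as terms. P-values were adjusted by Benjamini and Hochberg over all genes, with a threshold of 0.05. Where labels do not show separate mice, p-values measure only the spread between samples. The fit was tested on simulated data, drawn independently for each gene and library with the gene's residual spread. No simulated library stood apart as male DRG replicate 3 does, so the simulation cannot tell how the fit handles such a library. Its outcome is not used here. Gene positions and transcript lengths are from GENCODE M21.

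The members and lists were chosen with earlier results of these data known. Full values are given for the most abundant gene of each family, the 10 with the smallest p for ganglion, the 3 each for sex and interaction, every gene without overlap, and the 4 other guidance genes with the smallest p. Further genes were named after their values were seen. Alternatives were pseudocounts of 0.1 and 0.5, no filter or a filter at 5, median-ratio and quantile scaling, no sex term, no trend, array weights, replicate blocks and leaving out libraries. The labels' description numbers pair 4 DRG with 4 TG libraries: deviations correlated at 0.148 to 0.383 in 4 of 4 pairs, all over the limit of 0.1. Pairs by the numbers in the titles stayed under that limit (-0.357 to 0.0972). Male DRG replicate 2 also correlated at 0.146 and 0.145 with female TG replicates 1 and 2, whose numbers differ from its own. Both libraries of each description pair are of the same sex. Sex was not removed from the deviations, and its part in the correlations was not tested.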

Additional observations from a re-analysis of the deposited data

Results flagged for a closer look

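Of 76 groups of libraries tested (38 genes in each ganglion), 3 held a library far from the others of its group, and chance alone marks about 1 group in 20. Efna5 in male DRG replicate 3 was the lowest at 2.48 FPKM, where the other 5 DRG libraries had 21.8 to 30.7 FPKM. Sema7a in the same library was the highest at 1.80 FPKM, where the others had 0.522 to 0.833 FPKM. Unc5a in male TG replicate 1 was the highest at 1.21 FPKM, where the other 3 TG libraries had 0.512 to 0.630 FPKM.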

How the results depend on the processing

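No guidance gene passed between the ganglia under any alternative but array weights, under which 1 did (Epha7), and none passed for sex or for the interaction. Among all genes, 14 passed between the ganglia, 118 with array weights and 11 to 23 with a library left out, 23 of them without male DRG replicate 3. The number of guidance genes without overlap was 3. It was 1 with the filter at 5 FPKM (Plxna2), 6 without the 3 DRG libraries with the lowest rank correlations, male replicate 3 and female replicates 1 and 3 (Epha7, Sema5a and Sema6d added), and 3 to 5 with a library left out, namely 5 without male DRG replicate 3 (Sema5a and Sema6d added) and 5 without male TG replicate 1 (Nrp1 and Unc5a added). Fewer libraries overlap less by construction: the share of all genes without overlap was 8.07%, 3.69% and 2.76% in these settings, and 2.13% with the filter at 5. The replicate block called 0 guidance genes with either numbering, and 12 (titles) and 14 (descriptions) of all genes; it changed no call of a guidance gene.

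Differences near 0 changed sign, and the cause was not tested. Plxnc1 was 0.0226 with quantile scaling, 0.0940 over the 8 libraries numbered by title with and without the replicate block, and -0.22 to 0.15 with a library left out. Efnb2 was 0.0223 with median-ratio scaling, 0.00704 with quantile scaling, 0.0975 with array weights, 0.22 over the title-numbered libraries with and without the block, 0.0331 without those 3 DRG libraries, and -0.18 to 0.11 with a library left out. Robo2 was -0.14 over the 8 libraries numbered by description, with and without the block, and -0.11 to 0.30 with a library left out. With 6 and 4 libraries, the standard error of the guidance genes' differences was 0.17 to 0.49 log2 units, which limits what can be told apart.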
